A study of Mus musculus with 27 samples.

Results

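The response of the aged mouse ovary to auranofin was described from 9 RNA samples, 4 aged ovaries labelled as treated with auranofin and 5 aged untreated ovaries of the same experiment, chosen by their labels out of 27 samples in the series. The other samples were 5 young untreated ovaries of that experiment, which entered the same fit, and 13 ovaries of another experiment that compared young, aged and TRi-1-treated aged mice. The labels name no strain, age, dose, route or length of treatment, and no vehicle for the untreated group. They give each sample a replicate number but do not state that each came from a separate mouse, so p-values measure the spread between these samples. The series' title sets the treatments in a study of thioredoxin reductase 1 in senescent cells and in inflammation with age, and the question here is which transcripts differ in the aged ovary under auranofin.

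Auranofin is a gold(I) compound, used in rheumatoid arthritis, that binds the selenocysteine of thioredoxin reductases. These enzymes pass electrons from NADPH to thioredoxin, which reduces disulfides in peroxiredoxins, ribonucleotide reductase and transcription factors. Cells sense oxidants and electrophiles through KEAP1, a cysteine-rich adaptor that marks the transcription factor NRF2 for degradation. When KEAP1 cysteines are modified, NRF2 accumulates and binds antioxidant response elements near genes of glutathione synthesis, NADPH supply, haem breakdown, drug conjugation and the thioredoxin system itself. Txnrd1, which encodes the cytosolic thioredoxin reductase, is one of these NRF2 target genes. Aged mouse ovaries are known to gather lymphocytes, macrophages and other immune cells as follicles are lost.

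The core of the antioxidant response element, TGACNNNGC or on the other strand GCNNNGTCA, was searched on both strands in the RefSeq promoter windows of 300 bases (GRCm38.p6). It was present in 12.4% of all 32851 windows and in at least 1 window of 16.5% of the 11708 tested genes that had one. Of the 28 tested NRF2 target genes with a window, 10 held it, which is 35.7%. Hmox1, Gclc, Gsr, Gsta4 and Abcc1 had no window in the table. Those shown here are from genes on which the results turn, Gclm and Srxn1, which were called, and Txnrd1, the drug's target. Capitals mark the match, and all 3 sequences run 5′ to 3′ on the gene's strand. A match is a description of the letters and not a shown binding site.
Gclm (chr3:122245398-122245456, + strand, upstream of the start): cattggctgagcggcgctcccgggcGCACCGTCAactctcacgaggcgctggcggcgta
Txnrd1 (chr10:82859089-82859147, + strand, within the gene, upstream of an internal start, 1 of 3 windows): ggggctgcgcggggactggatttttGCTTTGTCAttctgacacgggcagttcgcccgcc
Srxn1 (chr2:152105544-152105568, + strand, past the start): agtgggcaGCTAGGTCAgagtgaga

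Auranofin replicates 3 and 4 stood apart from the other aged ovaries. Library totals were 9895231 to 14479170 counts under auranofin, 10139429 to 14027986 in untreated aged and 6782228 to 9799253 in young ovaries. The mean correlation of log2 CPM (counts scaled to library size) with the other 8 aged samples was 0.879 for auranofin replicate 3 and 0.864 for auranofin replicate 4, against 0.908 to 0.916 for the other 7. Of 10 ovary markers, Fshr, the follicle-stimulating hormone receptor, had no count in any aged sample. In auranofin replicate 3 the ovarian transcription factors Nr5a1 and Gata4 were also at 0, Lhx9 was at 0.606 and the steroidogenic enzyme Cyp11a1 at 0.303 CPM (here without scaling between libraries), while Foxl2 (7.48) and Wt1 (68.6) were present. Young replicate 3 showed the same pattern, with Nr5a1 at 0 and Cyp11a1 at 3.54. Auranofin replicate 4 had the highest levels of the immunoglobulin gene Igkc (23056 CPM) and of the fat gene Cfd (7881 CPM) among the 9 aged samples. None of 7 whole-sample measures differed between auranofin and untreated aged ovaries (exact permutation test, two-sided, adjusted p from 0.681 to 0.706 over the 7, with 0.00794 the smallest unadjusted p that 4 against 5 allows). Haemoglobin genes took 2.91 ± 2.10% of counts under auranofin (SD, n = 4) and 4.05 ± 1.68% in untreated ovaries (SD, n = 5).

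Hmox1, Srxn1 and Gclm rose in the aged ovary under auranofin, and these were the only genes of 16309 tested to pass edgeR's quasi-likelihood test at an adjusted p under 0.05. They make up 0.0184% of the genes tested. No gene fell by that test. At an unadjusted p under 0.05, 623 genes (3.82%) were higher and 525 (3.22%) lower. DESeq2 called 40 genes higher and 36 lower, and limma-voom with quality weights called 21 higher and 12 lower. In what follows, a gene is said to be called or to pass by edgeR's test unless another tool is named. The median log2 fold change over all genes was 0.02, and 52.0% of genes lay above 0. All 4 auranofin samples lay above all 5 untreated aged samples for 317 genes (1.94%) and below them for 266 (1.63%). In these bulk samples, fewer cells of a type and less RNA per cell cannot be told apart.

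Hmox1 encodes haem oxygenase 1, which splits haem into biliverdin, carbon monoxide and iron (ENSMUSG00000005413, GRCm38 chromosome 8, 75093621 to 75100589). Its levels were 1099, 478, 392 and 873 CPM in auranofin replicates 1 to 4. Those of untreated aged replicates 1 to 5 were 39.1, 39.7, 38.4, 44.4 and 42.4 CPM. Every auranofin sample was therefore far above every untreated one, and the untreated samples hardly varied. The means were 710 ± 333 CPM (SD, n = 4) and 40.8 ± 2.51 CPM (SD, n = 5), a ratio of 17.4 and a log2 fold change of 4.12 ± 0.36 (standard error; edgeR adjusted p = 7.5e-05). Young ovaries stood at 11.2 ± 5.00 CPM (SD, n = 5). Haemoglobin genes took 2.82, 2.74, 0.468 and 5.61% of counts in auranofin replicates 1 to 4 and 1.26 to 5.49% in untreated samples, and their part in the level of Hmox1 was not tested.

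Srxn1 encodes sulfiredoxin, which restores over-oxidised peroxiredoxins (ENSMUSG00000032802, GRCm38 chromosome 2, 152105516 to 152111376). It stood at 511, 409, 269 and 198 CPM in auranofin replicates 1 to 4. In untreated replicates 1 to 5 it stood at 66.9, 68.3, 69.9, 68.4 and 49.5 CPM. The groups did not overlap, and the lowest auranofin sample, replicate 4, was still above the highest untreated one. The log2 fold change was 2.42 ± 0.28, a ratio of means of 5.37 (edgeR adjusted p = 0.00197). In young ovaries Srxn1 stood at 24.5 ± 7.79 CPM (SD, n = 5).

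Gclm encodes the modifier subunit of glutamate-cysteine ligase, the first enzyme of glutathione synthesis (ENSMUSG00000028124, GRCm38 chromosome 3, 122245557 to 122270732). Auranofin replicates 1 to 4 held 155, 130, 121 and 65.4 CPM, and untreated replicates 1 to 5 held 24.8, 24.4, 31.4, 25.6 and 23.9 CPM. Again no auranofin sample reached down to the untreated range. The log2 fold change was 2.18 ± 0.26 and the ratio of means 4.53 (edgeR adjusted p = 0.00197). Untreated aged and young ovaries were at nearly the same level, 26.02 ± 3.07 (SD, n = 5) and 25.8 ± 7.16 CPM (SD, n = 5). A transcript on the opposite strand, Gm17494, overlaps Gclm. All 3 genes passed the test in each of 24 alternative fits, including those without auranofin replicates 3 and 4, with log2 fold changes from 3.82 to 4.32 for Hmox1, 2.18 to 2.82 for Srxn1 and 2.02 to 2.45 for Gclm.

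**Figure D1:**
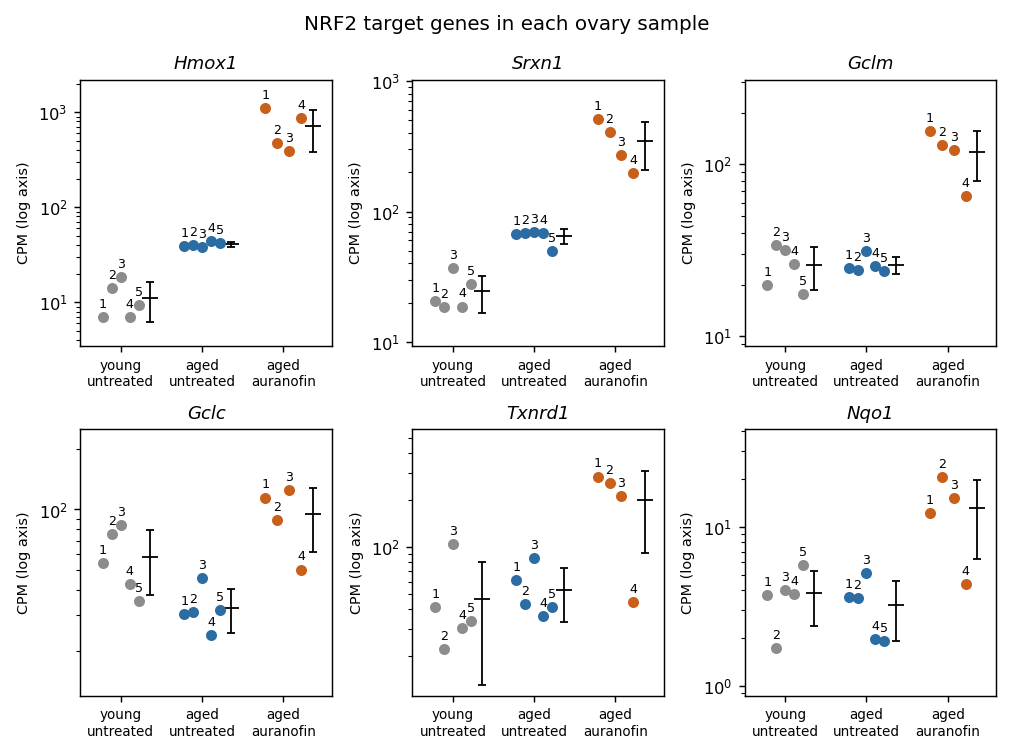
CPM of 6 NRF2 target genes (log axis) in each young untreated, aged untreated and aged auranofin ovary sample. Points are samples numbered by replicate, and the black marks to the right of each group are the mean and SD, a bar that would pass 0 being drawn to the lower edge. For Hmox1, Srxn1, Gclm and Gclc the 4 auranofin samples lie above all aged untreated samples, while for Txnrd1 and Nqo1 auranofin replicate 4 lies among them.

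The list of 34 NRF2 target genes, which includes these 3, lay mostly above 0. By edgeR, 3 of the 33 members that could be tested rose and 0 fell, beside 0.0184% of all genes that rose. The median log2 fold change was 0.51, against 0.02 over all genes, and 29 members lay above 0. Without auranofin replicates 3 and 4 the median was 0.81. At an unadjusted p under 0.05, 15 members were higher and 0 lower, beside 3.82% and 3.22% of all genes. The groups did not overlap for 9 members (27.3%), all in the higher direction, beside 1.94% of all genes. The mean log2 CPM of the list was 6.99, 7.05, 6.49 and 6.41 in auranofin replicates 1 to 4. It was 6.02, 6.01, 6.09, 5.94 and 5.81 in the untreated replicates, below each auranofin sample. In auranofin replicates 1 to 4, 20, 23, 16 and 17 of the 33 members exceeded all 5 untreated samples. For all genes tested that share was 18.9%, 19.2%, 22.8% and 29.2%, so replicates 3 and 4 also had more genes beyond the untreated range in general.

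Txnrd1, the enzyme that auranofin inhibits, stood higher in 3 of the 4 treated samples (ENSMUSG00000020250, GRCm38 chromosome 10, 82833951 to 82897712). Its levels were 283, 257, 212 and 44.5 CPM in auranofin replicates 1 to 4. In untreated replicates 1 to 5 they were 61.7, 43.1, 85.2, 36.1 and 41.2 CPM, so replicate 4 lay within the untreated range and the other 3 above it. The log2 difference of 1.90 ± 0.50 did not pass (edgeR adjusted p = 0.413). Without auranofin replicate 4 it was 2.23 (adjusted p = 0.119), and DESeq2 and limma-voom gave adjusted p of 0.0327 and 0.0062 on all samples. The gene Eid3 lies within Txnrd1 on the same strand. Of the other parts of the system, thioredoxin itself (Txn1) was at 0.05 ± 0.49 and the mitochondrial reductase Txnrd2 at 0.03 ± 0.30, and neither passed (edgeR adjusted p = 0.990 for each). Across leave-one-out fits Txn1 took both signs, from -0.26 without auranofin replicate 2 to 0.37 without auranofin replicate 4.

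Nqo1, a quinone reductase often used as a readout of NRF2, showed the same division of samples. It stood at 12.2, 20.6, 15.2 and 4.38 CPM in auranofin replicates 1 to 4 and at 3.63, 3.57, 5.11, 1.96 and 1.92 CPM in untreated replicates 1 to 5. Its log2 difference was 2.01 ± 0.46 (edgeR adjusted p = 0.379), and 2.30 without auranofin replicate 4 (adjusted p = 0.0969). Slc7a11, the cystine carrier that feeds glutathione synthesis, was also low in replicate 4, with 64.6, 93.2, 63.5 and 5.18 CPM in auranofin replicates 1 to 4. The untreated samples ran from 10.7 to 40.1 CPM, and the log2 difference was 1.27 ± 0.73 (edgeR adjusted p = 0.776). In replicate 4, Txnrd1 and Nqo1 thus lay within the untreated range and Slc7a11 below it, whereas Hmox1, Srxn1 and Gclm lay above it. DESeq2 and limma-voom called Nqo1 on all samples (adjusted p = 0.0175 and 0.0302).

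Gclc, the catalytic subunit that pairs with Gclm, did not overlap between groups. It stood at 114.7, 88.99, 124.7 and 50.4 CPM in auranofin replicates 1 to 4 and at 30.2, 30.9, 45.7, 23.9 and 31.6 CPM in the untreated ones. The log2 difference was 1.54 ± 0.30 (edgeR adjusted p = 0.267), and DESeq2 and limma-voom gave adjusted p of 0.0034 and 0.0062. The other members without overlap were Cbr3, Gstp1, Sqstm1, Pgd and Gsta3, which were singled out after their values were seen. Cbr3, a carbonyl reductase, had auranofin samples from 34.5 to 94.5 CPM and untreated samples from 20.7 to 29.3 CPM, a log2 difference of 1.54 ± 0.33. Pgd, which makes NADPH in the pentose phosphate pathway, had 255 to 352 CPM against 69.0 to 166 CPM, a difference of 1.13 ± 0.33. Sqstm1, the autophagy receptor p62 that binds KEAP1, had 523 to 1006 CPM against 288 to 457 CPM, a difference of 0.97 ± 0.24. Gstp1 and Gsta3, glutathione transferases with close relatives that can share counts, differed by 0.97 ± 0.23 and 1.24 ± 0.37. None of the 5 passed edgeR's test (adjusted p from 0.267 to 0.468), while DESeq2 called Cbr3, Gstp1 and Sqstm1 (adjusted p from 0.00934 to 0.0281) and limma-voom called Cbr3 (0.00318).

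Around this core, 3 smaller lists with shared members showed the same direction. Each held 1 of the 3 called genes, which are 0.0184% of all genes tested. Of 20 tested thioredoxin and peroxiredoxin genes, 1 rose (Srxn1), 0 fell and 16 lay above 0 (median 0.20). Prdx6, a peroxiredoxin that reduces phospholipid peroxides, stood at 369, 365, 390 and 536 CPM in auranofin replicates 1 to 4 and at 193, 218, 206, 246 and 258 CPM in the untreated ones. The groups did not overlap, but the log2 difference of 0.89 ± 0.19 did not pass (edgeR adjusted p = 0.267). Of 20 genes of glutathione synthesis and use, 1 rose (Gclm), 0 fell and 16 lay above 0 (median 0.37). Chac1, which degrades glutathione, was at 1.37 ± 0.58 and did not pass (edgeR adjusted p = 0.665). Of 18 genes of haem breakdown and iron handling, 1 rose (Hmox1), 0 fell and 15 lay above 0 (median 0.38). Ftl1, the ferritin light chain, was at 0.81 ± 0.25 and the haem transporter Slc48a1 at 0.99 ± 0.35, neither of which passed (edgeR adjusted p = 0.478 and 0.565). Ftl1 has many near-identical pseudogenes that can share its counts. The 15 other selenoproteins had 9 members above 0 and 0 called (median 0.08, which was -0.21 without auranofin replicate 3).

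The metallothioneins, which bind metal ions including gold and are induced through the metal-sensing factor MTF1 and by glucocorticoids, were higher without passing the test. Mt1 stood at 2665, 3010, 3317 and 2352 CPM in auranofin replicates 1 to 4. In the untreated samples it stood at 1373, 1359, 1379, 1026 and 837 CPM, with no overlap. The log2 difference was 1.25 ± 0.41 (edgeR adjusted p = 0.498). Mt2 was at 1.21 ± 0.52 with auranofin replicate 4 (1430 CPM) inside the untreated range of 880 to 1973 CPM. Mt3, a low-abundance form, went the other way, from 0 to 1.88 CPM under auranofin against 2.83 to 4.11 CPM untreated (difference -1.68 ± 0.73, edgeR adjusted p = 0.682). Of the 9 tested genes of metal response, 0 were called and 7 lay above 0 (median 0.22).

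Other stress responses gave no gene called by edgeR. Of the members named here, DESeq2 called Hspb8 (adjusted p = 0.0108) and limma-voom called Asns (0.0425). Among 20 heat shock genes the median was 0.18 and 14 lay above 0. Hspb8, a small heat shock protein of chaperone-assisted autophagy, stood at 447, 372, 635 and 491 CPM in auranofin replicates 1 to 4 and at 285, 206, 163, 246 and 305 CPM in the untreated ones. It did not overlap and differed by 1.01 ± 0.23 (edgeR adjusted p = 0.356). Its partner Bag3 was at 0.55 ± 0.22, and the inducible Hsp70 genes Hspa1a and Hspa1b, near-identical copies, at 0.94 ± 0.45 and 0.17 ± 0.90, the latter with a sign that changed over the alternatives. Of 21 tested genes of the ATF4 integrated stress response, which answers amino acid shortage and unfolded proteins, 19 lay above 0 (median 0.31). Trib3, a pseudokinase target of ATF4, did not overlap, with 11.5, 6.18, 10.6 and 28.7 CPM in auranofin replicates 1 to 4 and 1.83 to 5.89 CPM in untreated samples (difference 1.93 ± 0.52, edgeR adjusted p = 0.413). Asns, asparagine synthetase, was at 0.94 ± 0.25 and Gdf15, a stress hormone, at 1.43 ± 0.54. Ddit3, which encodes CHOP, was at 0.31 ± 0.48, and at -0.65 without auranofin replicate 4, its highest sample. The 20 genes of endoplasmic reticulum chaperones leaned the other way, with 17 below 0 and a median of -0.20 (Creld2 -0.63 ± 0.35). Of 29 proteasome subunit genes, which include targets of the related factor NRF1, 21 lay above 0 (median 0.19). Psmd1 was at 0.69 ± 0.22 and Psmc1 at 0.84 ± 0.36, and Psmc1 was at 0.39 without auranofin replicate 4.

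By the rule for named genes, the smallest p-values after the 3 called genes also took in Eif4ebp1, Zbtb16 and Chpf2 among higher genes. Eif4ebp1, a translation repressor and ATF4 target, stood at 114.5, 83.5, 98.2 and 113.6 CPM in auranofin replicates 1 to 4. In untreated replicates 1 to 5 it stood at 46.0, 50.1, 49.5, 46.0 and 37.3 CPM, so the groups lay well apart. Its log2 difference of 1.16 ± 0.19 just missed the threshold (edgeR adjusted p = 0.0587), and it was called in 5 of 24 alternative fits. Zbtb16, the transcription factor PLZF and a direct glucocorticoid receptor target, stood at 14.4, 6.89, 31.8 and 29.8 CPM against 4.502, 3.39, 6.499, 2.26 and 3.29 CPM. Its difference was 2.37 ± 0.48 (edgeR adjusted p = 0.267), and 1.41 without auranofin replicates 3 and 4. Chpf2, a chondroitin synthase subunit, was at 1.04 ± 0.21 (edgeR adjusted p = 0.267).

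Among lower genes the smallest p-value was that of Pex6, an ATPase of peroxisome assembly (ENSMUSG00000002763, GRCm38 chromosome 17, 46711463 to 46725541). It stood at 5.64, 3.13, 3.63 and 5.09 CPM in auranofin replicates 1 to 4. The untreated samples held 11.5, 17.6, 17.8, 14.83 and 15.2 CPM, all above the treated ones. The log2 difference was -1.81 ± 0.30 (edgeR adjusted p = 0.0665, and called in 4 of 24 alternative fits). The tubulin-binding gene Tppp (-1.63 ± 0.33), the fractalkine receptor Cx3cr1 (-1.73 ± 0.40), Nudt1, which removes oxidised nucleotides (-0.96 ± 0.23), the B-cell factor Spib, Fgd2 (-1.38 ± 0.34), Tmem221 (-1.36 ± 0.34) and Igsf9 (-1.64 ± 0.42) completed the set. None of these 7 overlapped between groups, beside 1.63% of all genes that lay wholly lower, and none passed (edgeR adjusted p from 0.267 to 0.413). DESeq2 called all 7 (adjusted p from 0.00366 for Tppp to 0.0337 for Igsf9). They were picked by small p-values in these same samples, so neither the lack of overlap nor the DESeq2 calls is separate support.

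**Figure D2:**
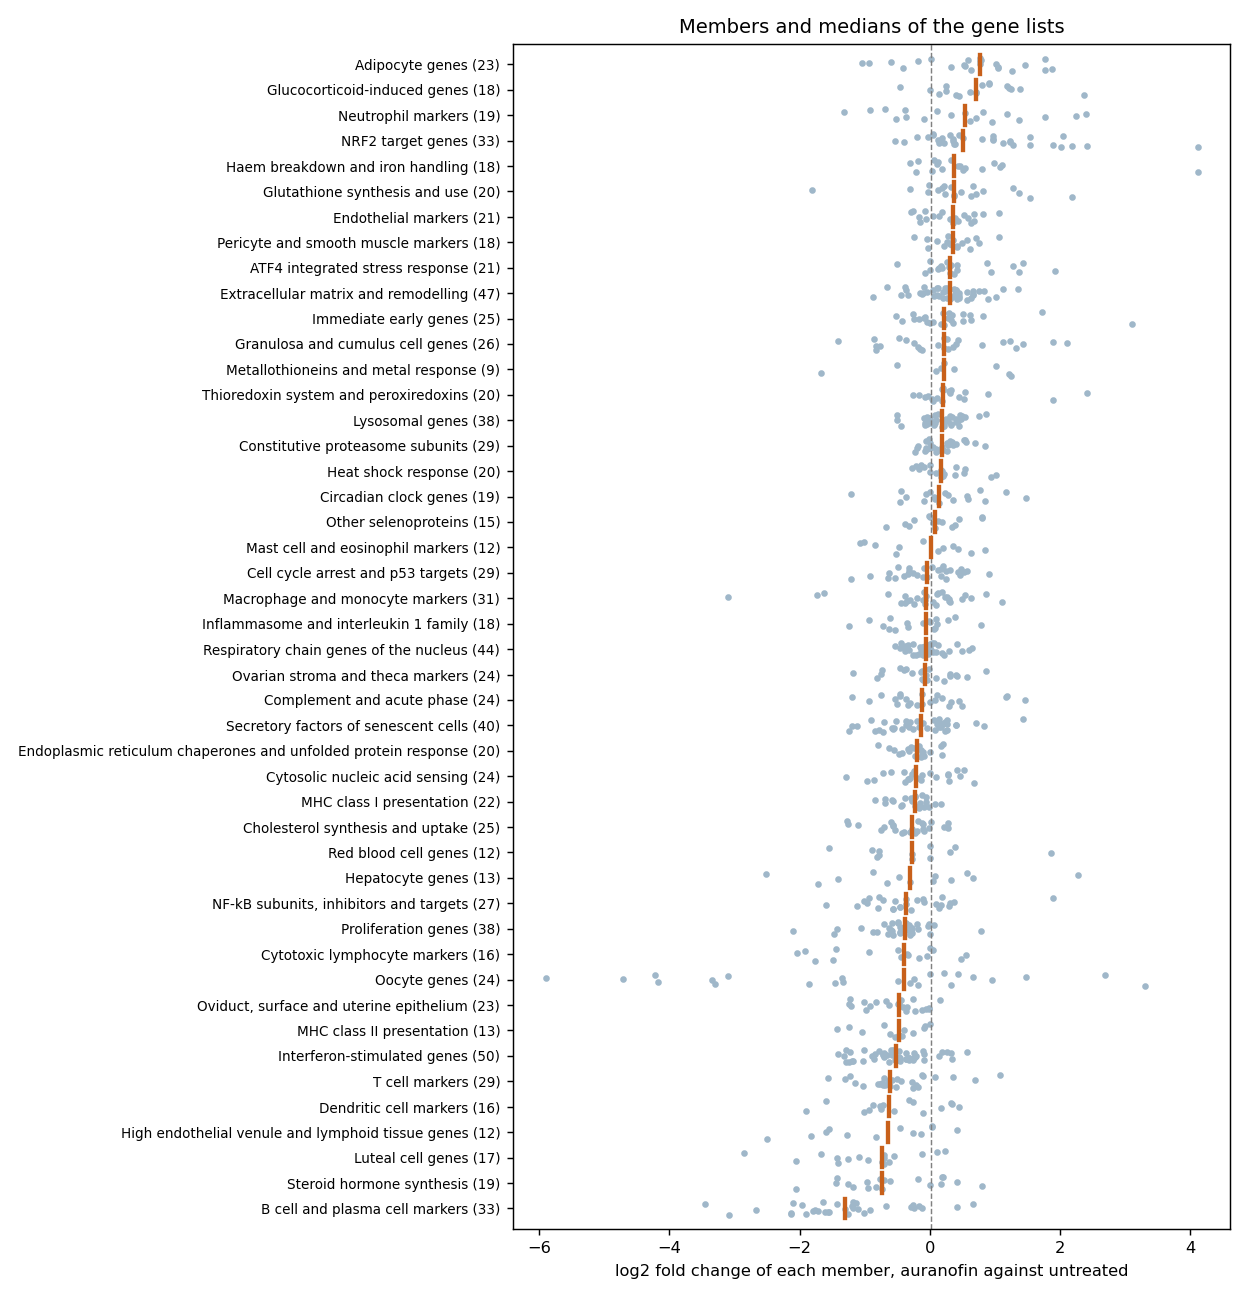
Log2 fold change of each tested member (points) of 46 gene lists, auranofin against untreated aged ovaries, with the median of each list as an orange bar and the number of tested members in brackets. The dashed line is the median of all genes, 0.02. Lists are ordered by median, from 0.77 for adipocyte genes to -1.30 for B cell and plasma cell markers.

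Transcripts of B and plasma cells were lower in 3 of the 4 auranofin samples, with no gene called by edgeR. Of 33 tested markers 31 lay below 0, with a median of -1.30 against 0.02 over all genes. At an unadjusted p under 0.05, 10 members were lower and 0 higher, beside 3.22% and 3.82% of all genes. All auranofin samples lay below all untreated ones for 4 members (12.1%), beside 1.63% of all genes. The mean log2 CPM of the list was 1.89, 3.99, 2.41 and 4.86 in auranofin replicates 1 to 4 and 4.73 to 5.65 in untreated samples, so only replicate 4 was within the untreated range. Without it the median was -2.003, and without replicates 3 and 4 it was -1.76. Young ovaries held little of these transcripts, with Spib at 0.944 ± 0.449 CPM and Igkc at 103 ± 60.3 CPM (SD, n = 5).

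Spib, a transcription factor of B cells and plasmacytoid dendritic cells, stood at 0.409, 10.23, 2.06 and 5.99 CPM in auranofin replicates 1 to 4 and at 41.0, 15.5, 31.8, 37.5 and 23.6 CPM in untreated replicates 1 to 5. The groups did not overlap, and the log2 difference was -2.67 ± 0.64 (edgeR adjusted p = 0.413; DESeq2 adjusted p = 0.00998, limma-voom 0.0425). Cd72, a regulator of B-cell receptor signalling, was at -1.57 ± 0.55 (edgeR adjusted p = 0.558, limma-voom 0.0331). Igkc, the immunoglobulin kappa constant region made in bulk by plasma cells, spread over 363, 3187, 1571 and 23056 CPM under auranofin and 4113 to 11566 CPM untreated. Its difference was -0.16 ± 0.81, and -2.22 without auranofin replicate 4 (edgeR adjusted p = 0.342). Immunoglobulin genes took 0.775 ± 0.946% of counts under auranofin (SD, n = 4) and 1.19 ± 0.382% in untreated ovaries (SD, n = 5). By sample the auranofin shares were 0.108, 0.587, 0.245 and 2.16%. The difference over all samples was -0.414 percentage points (exact permutation test, two-sided, unadjusted p = 0.389). Without replicate 4, the auranofin sample with the highest share, it was -0.877.

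Interferon-stimulated genes, transcripts that interferons of more than 1 type induce, were lower as a list. Of 50 tested members 44 lay below 0, with a median of -0.52 against 0.02 over all genes, and no member was called. At an unadjusted p under 0.05, 8 were lower and 0 higher, beside 3.22% and 3.82% of all genes. For 4 members (8%) all auranofin samples lay below all untreated ones, beside 1.63% of all genes. The list's mean log2 CPM was 4.58, 4.89, 4.08 and 4.11 in auranofin replicates 1 to 4. Untreated replicates 1 to 5 had 4.72, 5.02, 5.27, 5.28 and 5.12, so replicate 2 overlapped and the other 3 did not. The median stayed between -0.63 and -0.44 when any one aged sample was left out, and was -0.40 without auranofin replicates 3 and 4.

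Gbp5, an interferon-induced GTPase, stood at 11.6, 15.6, 4.31 and 7.33 CPM under auranofin and at 21.6, 31.4, 32.7, 28.9 and 15.3 CPM in untreated samples (difference -1.41 ± 0.39, edgeR adjusted p = 0.425). Oasl2, an oligoadenylate synthetase-like protein, stood at 34.0, 55.6, 35.7 and 35.0 CPM against 64.1, 89.3, 75.8, 74.5 and 69.0 CPM, with no overlap (difference -0.89 ± 0.26, edgeR adjusted p = 0.46). Isg20, an exonuclease, also did not overlap (difference -0.63 ± 0.21). Isg15, the ubiquitin-like modifier, stood at 11.04, 29.05, 6.67 and 6.61 CPM under auranofin against 29.0, 18.05, 49.2, 26.1 and 41.0 CPM, with replicate 2 inside the untreated range (difference -1.29 ± 0.50, edgeR adjusted p = 0.602). Cxcl10, an interferon-induced chemokine, spread from 2.68 to 43.3 CPM under auranofin against 21.8 to 36.02 CPM (difference -0.78 ± 0.68, edgeR adjusted p = 0.868), and over the alternatives its difference ran from -1.72 without auranofin replicate 1 to 0.07 without replicates 3 and 4.

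Of 24 sensors and adaptors of cytosolic nucleic acids, 15 lay below 0 and 0 were called (median -0.22). Zbp1, a Z-nucleic acid sensor, had its highest auranofin sample at 20.9 CPM and its lowest untreated one at 20.98 CPM (difference -1.28 ± 0.64, edgeR adjusted p = 0.741). Tmem173, which encodes STING, had 52.8 to 86.5 CPM under auranofin and 56.9 to 118 CPM untreated (difference -0.38 ± 0.55). Of 27 NF-kB genes 19 lay below 0 (median -0.37), with the inhibitor Nfkbie at -1.12 ± 0.35 and the kinase Ikbke at -0.97 ± 0.35. Ptgs2, also in that list, went the other way, at 1.89 ± 0.73, with means of 11.1 CPM under auranofin and 2.99 CPM untreated. None of these named genes passed (edgeR adjusted p from 0.478 to 0.924). Presentation genes leaned the same way: 20 of 22 class I genes (median -0.22, Psmb10 -0.69 ± 0.23, Psmb8 -0.84 ± 0.37) and 12 of 13 class II genes (median -0.47, H2-Ob -1.42 ± 0.48) lay below 0, with 0 called. The class I median was -0.02 without auranofin replicates 3 and 4, and the class II median was -0.16 without auranofin replicate 3.

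Secretory factors of senescent cells did not lean clearly to one side. Of 40 tested members 22 lay below 0 and 18 above, with a median of -0.14 that was 0.17 without auranofin replicates 3 and 4. The member with the smallest p, Gdf15, was higher (1.43 ± 0.54, edgeR adjusted p = 0.581). The fixed inflammatory genes had wide spreads. Il1b, the inflammasome cytokine, stood at 40.6, 115.6, 48.9 and 8.49 CPM under auranofin and 25.3 to 186 CPM untreated (difference -0.72 ± 0.61, and from -1.39 to -0.19 over the alternatives). Ccl2, a monocyte chemokine, was at -0.56 ± 0.74 (from -1.30 without auranofin replicate 2 to 0.19 without replicates 3 and 4). The acute-phase protein Saa3, which is outside the secretory list, was at -1.19 ± 0.65. Il1rn, the interleukin 1 receptor antagonist, was at -1.24 ± 0.51. None of the 4 passed (edgeR adjusted p from 0.645 to 0.917). Il6 had 54 counts over the 9 aged samples and was not tested. Among 29 cell cycle arrest genes, 14 lay above 0 (median -0.04). Cdkn1a, which encodes p21, stood at 63.1, 56.7, 58.1 and 59.2 CPM under auranofin, inside the untreated range of 33.4 to 63.8 CPM (difference 0.25 ± 0.25). Cdkn2a, the p16 and p19 locus, was at -1.21 ± 0.79 (edgeR adjusted p = 0.815) and the p53 target Aen at 0.57 ± 0.18 (edgeR adjusted p = 0.498).

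Other immune lists gave no gene called by edgeR. Of the members named here, DESeq2 called Cx3cr1 (adjusted p = 0.0108), Klrg1 (0.039) and Marco (0.0495), and limma-voom called Cx3cr1 (0.00318). T cell markers had 25 of 29 members below 0 (median -0.60), cytotoxic lymphocyte markers 13 of 16 (median -0.39, Klrg1 -2.04 ± 0.56), dendritic cell markers 12 of 16 (median -0.63) and lymphoid tissue genes 9 of 12 (median -0.64, Glycam1 -2.51 ± 0.81). Auranofin replicate 3 was the lowest of the 9 aged samples for T cells, macrophages and class II genes, and without it the T cell median was -0.34. Macrophage and monocyte markers had 15 members above and 16 below 0 (median -0.05). Cx3cr1, in that list, stood at 35.8, 41.6, 24.6 and 95.2 CPM under auranofin and at 120.6, 132.6, 225, 217.5 and 119.9 CPM untreated. Marco, a scavenger receptor, was at -3.10 ± 0.98, and at -1.32 without untreated replicate 1, which alone held 150 CPM. Gpnmb, a glycoprotein of lipid-laden macrophages, ranged from 62.2 to 3240 CPM under auranofin and from 152 to 1639 CPM untreated (difference 0.86 ± 0.89, and -0.05 without auranofin replicate 4). Neutrophil markers had 12 of 19 members above 0 (median 0.54, and 0.06 without auranofin replicate 3). Their mean log2 CPM was 4.39 to 5.31 under auranofin, inside the untreated range of 2.74 to 5.86. S100a8 was at 0.96 ± 0.68, S100a9 at 0.62 ± 0.66 and the granule protein Ngp at 2.25 ± 1.01. S100a8 was at -0.005 without auranofin replicate 4, which held 4489 CPM. Of 12 red blood cell genes 7 lay below 0 (median -0.27).

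**Figure D3:**
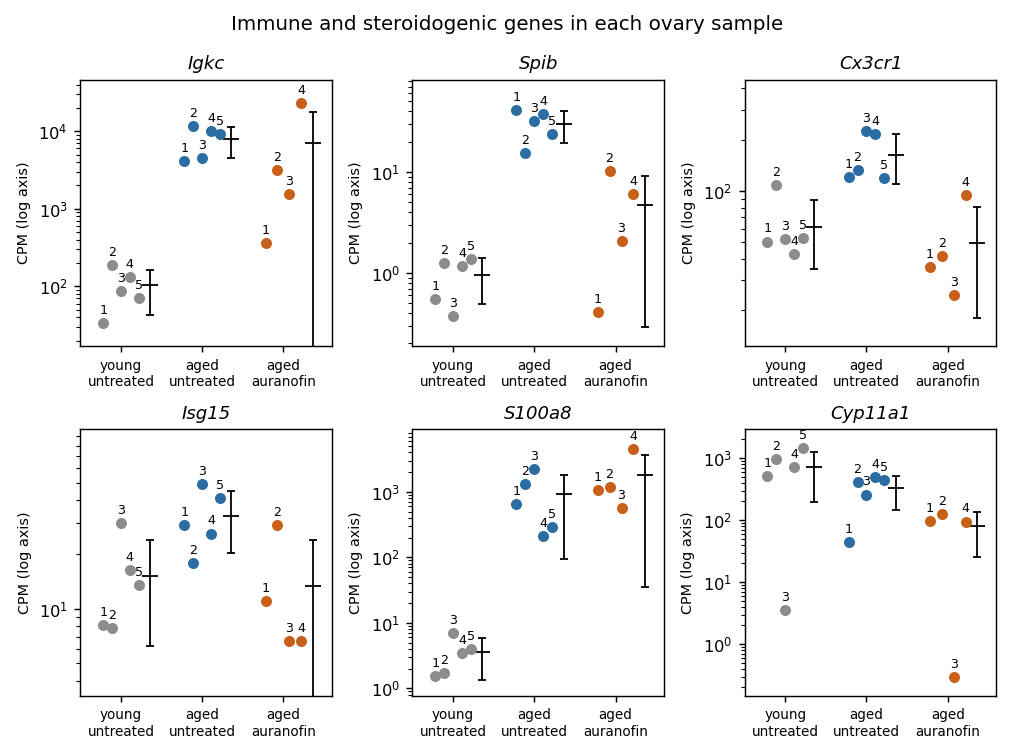
CPM of 6 immune and steroidogenic genes (log axis) in each sample, with points numbered by replicate and the mean and SD drawn as in the plot of NRF2 target genes. Spib and Cx3cr1 do not overlap between the aged groups, Igkc and S100a8 are highest in auranofin replicate 4, and Cyp11a1 is near 0 in auranofin replicate 3.

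Glucocorticoid-induced genes were another list that lay mostly above 0. Of 18 tested members 17 lay above 0, with a median of 0.71, and 2 did not overlap (11.1%, beside 1.94% of all genes). At an unadjusted p under 0.05, 5 were higher, beside 3.82% of all genes. The list's mean log2 CPM was 6.70, 6.55, 6.92 and 6.54 in auranofin replicates 1 to 4 and 6.24, 5.92, 6.37, 5.77 and 5.89 in untreated replicates, without overlap. No member was called by edgeR, while Zbtb16 was called by DESeq2 (adjusted p = 0.00267) and by edgeR with all 27 samples in 1 fit (0.00831). Zbtb16 and Mt1 were the 2 without overlap, and the growth-factor feedback inhibitor Errfi1 was at 1.38 ± 0.43 (edgeR adjusted p = 0.478). Mt1 and Mt2, both among the 5, also belong to the metal response list. Other members differed less, with Fkbp5 at 0.45 ± 0.53, Tsc22d3 at 0.41 ± 0.32 and Ddit4 at 0.003 ± 0.41. Of 19 clock genes 13 lay above 0 (median 0.14). Dbp, an output factor of the clock, stood at 24.5, 27.3, 29.1 and 27.6 CPM under auranofin and at 62.6, 61.3, 46.2, 58.2 and 85.7 CPM untreated, with no overlap (difference -1.21 ± 0.34, edgeR adjusted p = 0.43). Nfil3, a repressor of the same sites, was the mirror image, with 27.8, 29.2, 41.6 and 26.8 CPM under auranofin and 8.23 to 17.1 CPM untreated (difference 1.17 ± 0.40, edgeR adjusted p = 0.538). The labels give no time of day of collection, and its part in these values was not tested.

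Among genes of the ovary's own tissues edgeR called none. Of the genes named here, limma-voom called Lrrn4 (adjusted p = 0.0427) and DESeq2 called Fosl1 (0.0359). Granulosa and cumulus cell genes had 15 of 26 members above 0 (median 0.22, and -0.01 without auranofin replicate 1). Oocyte genes had 15 of 24 members below 0 (median -0.40). Together those 24 took only 32.4 to 47.2 CPM in each aged sample, against 28.4 to 383 CPM in young samples. The young samples also entered the filter, so members low in all aged samples could be tested, and this median says little. Luteal cell genes had 15 of 17 members below 0 (median -0.74, and -0.22 without untreated replicate 5). Endothelial markers had 15 of 21 members above 0 (median 0.36) and pericyte and smooth muscle markers 15 of 18 (median 0.35, and -0.10 without auranofin replicate 3). Steroid synthesis genes had 13 of 19 members below 0 (median -0.74, and -0.15 without untreated replicate 5). Cyp11a1, which makes pregnenolone from cholesterol, stood at 97.7, 123, 0.294 and 95.0 CPM under auranofin and at 44.7, 406, 259, 491 and 441 CPM untreated (difference -2.05 ± 1.18, edgeR adjusted p = 0.774). Matrix genes had 36 of 47 members above 0 (median 0.31). Col4a1, a basement membrane collagen, did not overlap, with 423 to 620 CPM under auranofin and 205 to 334 CPM untreated (difference 0.90 ± 0.26, edgeR adjusted p = 0.46), while Adamts1 and Mmp2, matrix proteases, were at 1.13 ± 0.41 and 0.76 ± 0.28. Surface, oviduct and uterine epithelium markers had 22 of 23 members below 0 (median -0.47). Krt19, an epithelial keratin, did not overlap, with 116, 145, 213 and 103 CPM under auranofin and 240 to 321 CPM untreated (difference -0.98 ± 0.34, edgeR adjusted p = 0.556). Lrrn4, a mesothelial marker, was at -1.20 ± 0.38 (edgeR adjusted p = 0.478). Proliferation genes had 36 of 38 members below 0 (median -0.38, Nusap1 -1.06 ± 0.42). Adipocyte genes had 18 of 23 above 0 (median 0.77, Plin4 1.78 ± 0.73), with the list's summed level at 1168 to 18710 CPM under auranofin and 1341 to 8312 CPM untreated. The amount of fat or oviduct taken with each ovary is not given in the labels, and its part in these lists was not tested. The immediate early gene Fosl1 stood at 19.7, 17.3, 15.1 and 0.626 CPM under auranofin and 0.589 to 2.97 CPM untreated, with replicate 4 again at the untreated level (difference 3.11 ± 0.82, edgeR adjusted p = 0.413). Of 13 tested hepatocyte genes 6 lay above 0 and 7 below (median -0.30). Cyp2e1, a cytochrome of liver and fat, was the highest of them at 2.28 ± 0.97 and did not pass (edgeR adjusted p = 0.665).

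**Figure D4:**
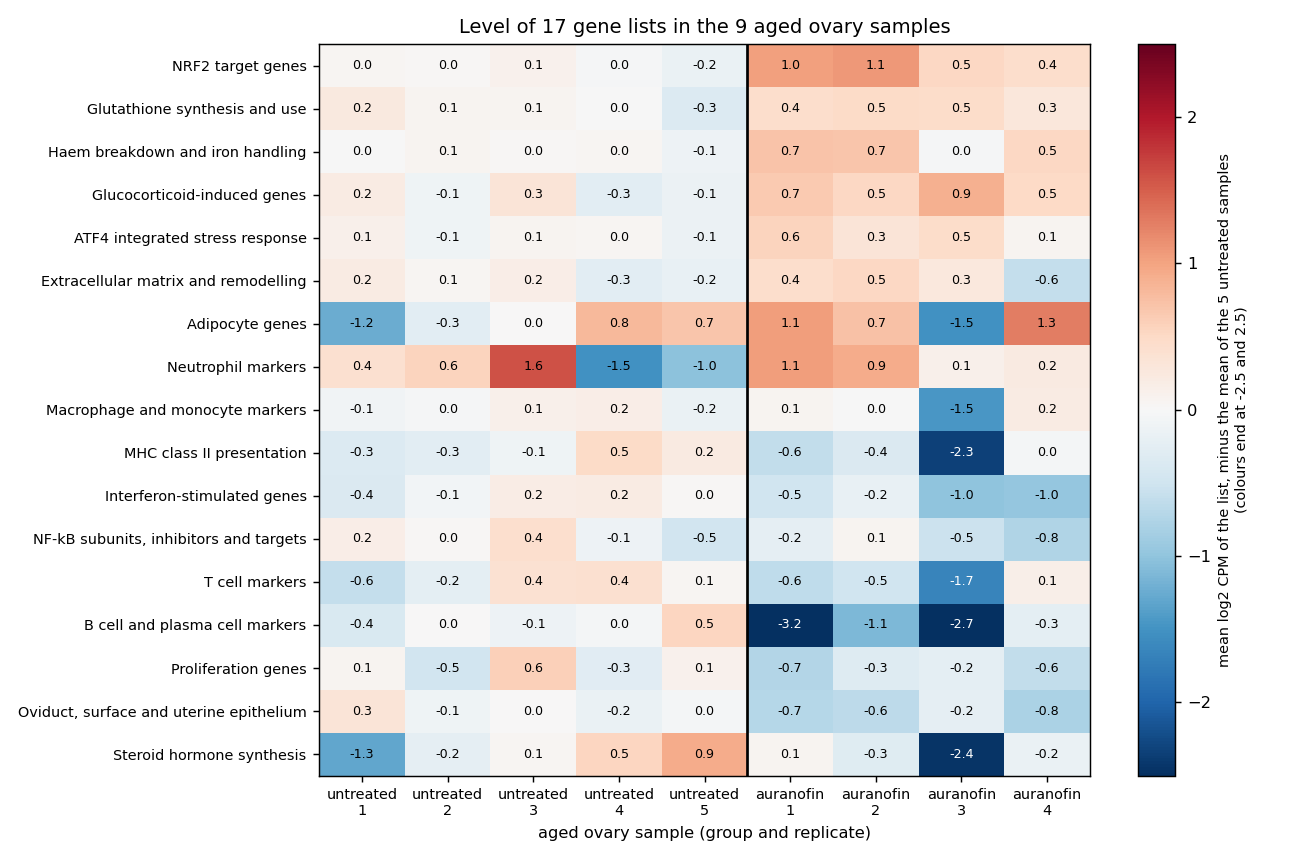
Mean log2 CPM of 17 gene lists in each of the 9 aged samples, as the difference from the mean of the 5 untreated samples (red higher, blue lower). NRF2 target genes, glutathione genes and glucocorticoid-induced genes are above the untreated samples in all 4 auranofin samples, B cell markers are lowest in auranofin replicates 1 and 3, and auranofin replicate 3 is low for macrophage, class II and steroid genes.

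The second thioredoxin reductase inhibitor of the series, TRi-1, was given to aged mice in the other experiment (4 treated and 4 untreated ovaries), and its effect shares no sample with that of auranofin. Drug and experiment cannot be told apart in this comparison. In a fit of all 27 samples, 3 of 17484 genes had an auranofin effect that differed from the TRi-1 effect, which is 0.0172%, all higher under auranofin: Hmox1, Hspb8 and Srxn1. Under TRi-1, on CPM scaled over all samples, Hmox1 stood at 63.2, 33.1, 96.6 and 28.6 CPM in treated and at 106.8, 70.4, 72.1 and 103.8 CPM in untreated ovaries, so the treated samples lay below the untreated range in 3 of 4 cases (log2 fold change -0.70 ± 0.37). The difference of the effects was 4.81 ± 0.54 (edgeR adjusted p = 3.5e-05). Hspb8 stood at 134, 124, 101 and 123 CPM under TRi-1 and at 300, 162, 284 and 284 CPM without it, a log2 fold change of -1.11 ± 0.23, opposite in sign to that under auranofin. Its effects differed by 2.13 ± 0.32 (edgeR adjusted p = 0.00327). Srxn1 was at -0.21 ± 0.34 under TRi-1 and its effects differed by 2.62 ± 0.46 (edgeR adjusted p = 0.0316), a call held in 11 of 22 alternative fits.

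Across the 33 tested NRF2 target genes the median was 0.51 under auranofin and 0.04 under TRi-1, with 29 and 18 members above 0. The difference of effects lay above 0 for 27 members (median 0.68, against -0.005 over all genes tested). Gclm was at 0.23 ± 0.31 and Txnrd1 at 0.41 ± 0.32 under TRi-1, with differences of 1.93 ± 0.41 and 1.47 ± 0.63 that did not pass (edgeR adjusted p = 0.0896 and 0.391). Ftl1 was at -0.74 ± 0.19 under TRi-1 and its difference of 1.54 ± 0.32 also did not pass (edgeR adjusted p = 0.0896). Nqo1 was at 1.30 ± 0.47 under TRi-1, with a difference from auranofin of 0.68 ± 0.65 (edgeR adjusted p = 0.739). The labels give no doses for the drugs, so these values stand side by side without a comparison of potency.

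**Figure D5:**
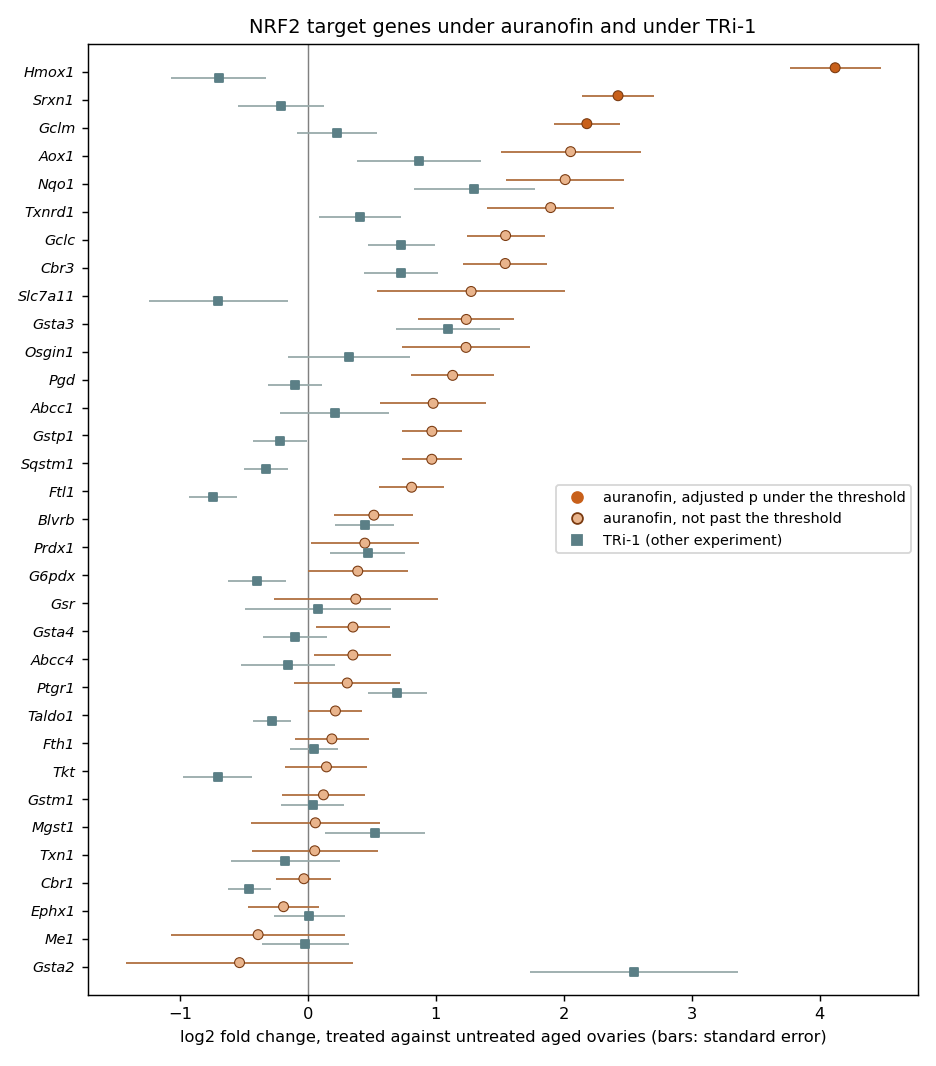
Log2 fold changes of the 33 tested NRF2 target genes, treated against untreated aged ovaries, for auranofin (circles) and for TRi-1 in the other experiment (squares), with standard errors as bars. Dark circles mark the 3 genes called under auranofin, Hmox1, Srxn1 and Gclm. Hmox1 lies at 4.12 under auranofin and at -0.70 under TRi-1.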

How the data were processed

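Ovary polyA RNA went into Lexogen Quantseq libraries (per the labels' protocols), a method known for reading transcript 3′ ends. The authors deposited 1 table of whole-number counts per gene for 27 samples, not scaled between samples. RSEM 1.2.3, DESeq2 and mm10 are named in the submitters' processing notes. The annotation and strand of counting are not given in the sources used here. Of 84 genes of the text that were checked, 17 overlap another tested gene, 15 of them on the other strand. Of 51789 gene IDs, 51596 matched GENCODE M21.

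The 14 samples of the auranofin experiment were fitted together in edgeR 4.0.16 (R 4.3.3; TMM, filterByExpr, quasi-likelihood F test, Benjamini-Hochberg, threshold 0.05), and all 27 for the difference from TRi-1. Standard errors come from F, as log2 change over its root. Levels are CPM from TMM-scaled libraries, and a prior count of 2 went into log2 CPM. The tests were checked on simulated data. Named genes were the called genes with at least 5 CPM, filled to 8 per direction by smallest p, the 3 smallest p of each of 46 lists and 26 fixed genes, of which part is printed. The comparison, lists and rule were chosen with earlier results of these data known. Alternatives were RLE factors, DESeq2 1.42.0, limma-voom (limma 3.58.1), no filter or 5 CPM, other sample sets, a replicate block and each sample left out. Fits without 2 samples at once were added after seeing the data.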

Additional observations from a re-analysis of the deposited data

Results flagged for a closer look

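Hmox1, Hspb8 and Srxn1 differed between the auranofin and TRi-1 effects by an interaction term in edgeR, with log2 differences of 4.81, 2.13 and 2.62. Within groups, 15 of 182 sets of 4 or 5 values (8.24%) had a highest or lowest sample whose gap passed Dixon's 95% limit. That limit flags about 1 in 20 sets of independent, normally distributed values. Most sets here are unlogged CPM of picked genes in the same samples, so the rates cannot be compared. Among auranofin samples, replicate 4 was flagged as highest for Prdx6 (536 CPM), Gstp1 (1229 CPM), Ddit3 (125 CPM), Igkc (23056 CPM) and S100a8 (4489 CPM). It also had the fewest genes at 1 CPM or more (13903). Its TMM factor was 0.774, against 1.03 to 1.05 in auranofin replicates 1 to 3, which raises its CPM relative to theirs. The part of this scaling in the flags was not tested. Replicate 2 was highest for Oasl2 (55.6 CPM), and replicate 3 for Nfil3 (41.6 CPM) and Nusap1 (7.35 CPM). Among untreated samples, replicate 5 was lowest for Srxn1 (49.5 CPM), replicate 3 highest for Gclm (31.4 CPM), replicate 1 highest for Marco (150 CPM) and Adamts1 (96.3 CPM), and replicate 2 highest for Mmp2 (127 CPM). The share of counts taken by the 10 most abundant genes was lowest, at 7.11%, in 1 untreated sample.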

How the results depend on the processing

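Hmox1, Srxn1 and Gclm were called in all 24 alternatives. The count of 3 called genes (3 higher, 0 lower) became 76 (40 and 36) with DESeq2, 33 (21 and 12) with limma-voom and quality weights, and 10 (7 and 3) with all 27 samples in 1 fit. With a replicate block it became 11 (3 and 8), the 8 lower being Rnu11, Rnu1a1 and 6 genes with provisional symbols. With each group's mean taken out, log2 CPM of same-numbered auranofin and untreated samples correlated at 0.12, -0.17, 0.03 and 0.44. Differently numbered samples were not compared, so whether the numbers pair samples stays unknown. Leaving out 1 sample gave 3 to 5 called genes, 3 to 4 higher and 0 to 1 lower (5, 4 and 1 without young replicate 3). With auranofin replicates 3 and 4 left out, or auranofin replicate 3 with young replicate 3, the count was 3 (3 and 0). The count of 3 for the difference from TRi-1 (3 and 0) became 93 (44 and 49) with DESeq2, 30 (19 and 11) with limma-voom, 5 (4 and 1) at 5 CPM and 2 to 10 (2 to 6 higher, 0 to 4 lower) without 1 sample, 10 of them without auranofin replicate 4 and 7 without untreated replicate 2 of the TRi-1 experiment. The cause was not tested. Of 2011 pairs of gene and alternative for 84 genes of the text, 1942 kept direction and call, 43 became called and 26 uncalled values changed sign. The sign of the median held for 35 of 46 lists in every alternative run on it, and the 11 others include secretory factors and macrophage markers. With 4 against 5 samples, small changes were not detectable.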
